A study of Homo sapiens with 12 samples.

Results

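The genes described here were 9 transcripts that mark kidney epithelial lineage or belong to the cadherin and intermediate filament machinery of epithelial cells, chosen by symbol from the 23710 gene symbols of the count files. They were PAX8 and PAX2, the cadherins CDH1, CDH2, CDH6 and CDH16, the intermediate filament gene VIM, and the proximal tubule genes CUBN and ANPEP. All 9 had a row in each of the 12 files.

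Classical cadherins are calcium-dependent adhesion proteins that hold neighbouring cells together and are anchored to the actin cytoskeleton through catenins. In the kidney, different nephron segments carry different cadherins: E-cadherin (CDH1) is found mainly in the distal nephron and collecting duct, N-cadherin (CDH2) and cadherin-6 (CDH6) in the proximal tubule, and kidney-specific cadherin (CDH16) along tubular epithelium. PAX2 and PAX8 are paired-box transcription factors that set up the nephric lineage, and many clear cell renal carcinomas keep them, together with vimentin (VIM), an intermediate filament protein of mesenchymal cells.

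RNA-seq was performed on RCC4 cells, an established human clear cell renal carcinoma line, collected 72 h after transfection with 40 pmol of siRNA. MESH1, whose gene symbol is HDDC3, encodes a phosphatase of NADPH, and the study asked how its silencing changes the transcriptome. The first experiment compared 3 libraries of siMESH1-CDS with 3 of a non-targeting siRNA (siNT), and the second compared 3 libraries of siMESH1-7002 with 3 siNT libraries of its own. All 4 groups were the same line under the same transfection, so the siNT libraries carry siRNA and transfection reagent too, and results from 1 cultured line describe that line only. The libraries of a group are labelled as biological replicates.

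The siRNA sequences are shown because each siRNA was used in 1 experiment only, and their seeds were searched for in the genes described. For the second siRNA, the labels tie the target below to the name siMESH1-7002. The paper's methods list this target under a catalogue number that ends in 7002. The treatment protocol in the labels gives a different catalogue number, so this sequence is less certain than the other. The target in HDDC3 is followed by the guide strand, with the seed (bases 2 to 8 of the guide, counted from its 5′ end) in capitals.
siMESH1-CDS target: gggaatcactgacattgtg
siMESH1-CDS guide: cACAAUGUcagugauuccc
siMESH1-7002 target: ctgaaggtctcctgctaacta
siMESH1-7002 guide: uAGUUAGCaggagaccuucag
The 19 bases targeted by siMESH1-CDS occurred in 9 of 10 annotated HDDC3 transcripts, and the 21 bases targeted by siMESH1-7002 in 6 of 10. In the longest coding transcript the siMESH1-CDS target lay outside the 3′UTR and the siMESH1-7002 target within it. Sites complementary to the seed, ACATTGT for siMESH1-CDS and GCTAACT for siMESH1-7002, were looked for on the sense strand of 3′UTRs in GENCODE release 29. None of the 9 genes held either site in its 3′UTR, while 14.03% and 5.44% of 19015 annotated 3′UTRs did.

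HDDC3 was lowered with each siRNA. In the first experiment it had 438, 292 and 361 reads in siNT and 5, 0 and 11 with siMESH1-CDS. In the second it had 442, 326 and 358 reads in siNT and 36, 35 and 52 with siMESH1-7002. The groups did not overlap, and HDDC3 changed by -5.56 ± 0.82 on the log2 scale (SE) with siMESH1-CDS and by -3.25 ± 0.13 with siMESH1-7002 (edgeR adjusted p = 0.00174 and 2.51e-12). The change with siMESH1-CDS was -6.66 without its replicate 3 and -4.93 without its replicate 2.

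Libraries held 34063155 to 49134129 reads in genes in the first experiment and 24787804 to 31651125 in the second. The 3 siMESH1-CDS libraries stood apart from one another: a chi-square over genes gave 65.2 to 274.6 per degree of freedom between them, against 2.24 to 15.2 between replicates of the other groups. Changes with siMESH1-CDS also followed the GC content of the transcript. When all tested genes were put in 10 classes of GC content, the median log2 change ran from 1.10 in the class of lowest GC content to -3.67 in the class of highest, against 0.14 to -0.09 with siMESH1-7002. The changes of the 9 genes are therefore printed beside the median of the GC class or the value after a correction for GC content, and what produced the trend was not tested. Levels are in CPM, a gene's reads relative to the TMM-scaled size of its library, and a gene was called at an edgeR adjusted p under 0.05.

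Vimentin was by far the most abundant of the 9 transcripts in siNT cells, and E-cadherin and aminopeptidase N (ANPEP) lay at the bottom. Levels were put on a common scale as CPM per kilobase of the longest annotated transcript. In siNT of the first experiment the mean level per kilobase was 1644 for VIM, 123.9 for CDH2, 58.98 for CDH6, 40.57 for PAX8, 27.65 for CDH16, 4.36 for PAX2, 0.339 for CUBN, 0.0182 for ANPEP and 0.00883 for CDH1. Of neighbours in this order, the libraries overlapped for ANPEP and CDH1 and for no other pair.

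In siNT of the second experiment the order differed. VIM led again with a mean of 2740 CPM per kilobase, followed by CDH16 at 300.2, CDH6 at 157.5, PAX8 at 106.6, CDH2 at 71.04, PAX2 at 29.7, CDH1 at 0.871, CUBN at 0.560 and ANPEP at 0.0169. No neighbours overlapped there. N-cadherin was thus the most abundant of the 4 cadherins in one set of control cells, and kidney-specific cadherin in the other. The mean length of coding transcripts in place of the longest gave the same order in both sets.

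**Figure D1:**
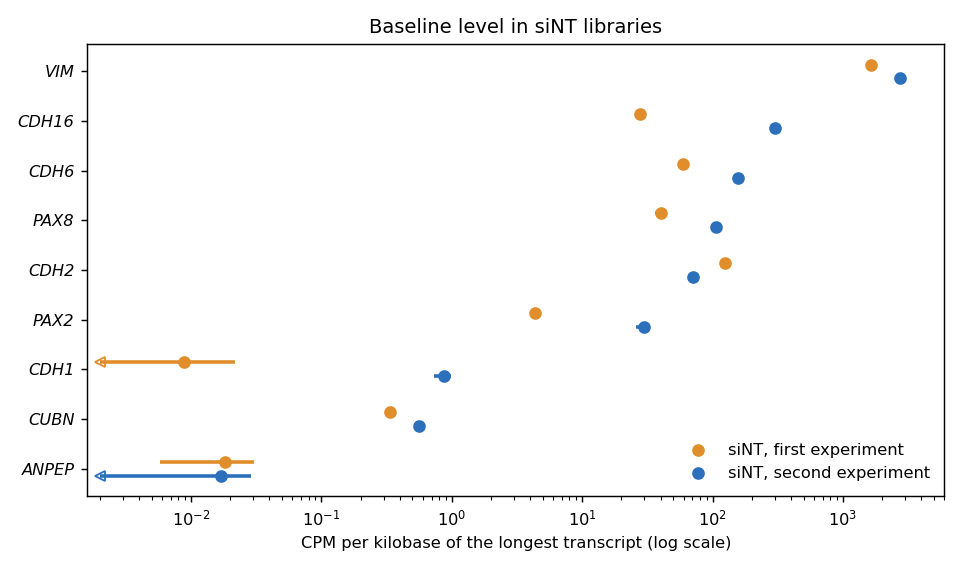
Mean level of the 9 genes in siNT libraries, in CPM per kilobase of the longest transcript on a log axis, with a line from the lowest to the highest of 3 libraries and an open triangle at the left edge where a library had 0 reads. VIM was highest in both experiments at 1644 and 2740, CDH16 moved from 27.65 to 300.2, and CDH1 from 0.00883 to 0.871.

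Against all genes of at least 1 CPM, whose median level was 9.13 CPM per kilobase in siNT of the first experiment and 9.57 in the second, VIM, CDH2, CDH6, PAX8 and CDH16 were above the median in both. PAX2 was below it in the first and above it in the second, and CUBN below it in both. ANPEP, an enzyme of the proximal tubule brush border, had 0 to 6 reads in any of the 12 libraries, so 8 of the 9 genes carried a usable signal in at least 1 experiment. PAX8, PAX2, CDH16, CDH6, CDH2 and VIM were thus plainly detected in every siNT library, while ANPEP was not in either experiment and CDH1 was not in the first.

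Of the 9 genes, E-cadherin differed most between the siNT cells of the 2 experiments. CDH1 had 0, 1 and 5 reads in the first set and 113, 110 and 135 in the second, or 6 against 358 reads in all. As a share of reads in genes this was 93.4-fold higher in the second set, with an exact 95% interval of 42.5 to 256.3 that covers counting error only. CDH16 was 9.77-fold, PAX2 6.13-fold, CDH6 2.41-fold and PAX8 2.37-fold higher in the second set, on a common TMM scale of the 12 libraries.

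VIM was 1.5-fold and CUBN 1.49-fold higher in the second set, whereas CDH2 was 1.94-fold lower. For all of these genes the 3 libraries of one set lay outside the range of the other. Differences over 2-fold were common among 12829 genes: 25.3% were higher in the second set by that much and 17.6% lower. Over 4-fold higher were 12.4%. A larger rise than that of CDH16 was found for 4.41% of these genes, and a larger one than that of CDH1 for 0.499%. The siNT difference also followed GC content, with class medians from -0.81 to 2.41 on the log2 scale. Set against their own class, PAX2 at 2.62 was close to the class median of 2.41, while CDH16 at 3.29 exceeded its class at 1.17. CDH6 at 1.27 lay opposite to its class at -0.65. CDH1, at 6.19 with 0.01 CPM added to both means, lay opposite to its class at -0.13. Experiment and sequencing lane were the same split for these controls, so their parts cannot be told apart.

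N-cadherin and cadherin-6 rose with both siRNAs. CDH2, the N-cadherin gene, measured 523, 557 and 531 CPM in siNT and 1666, 1651 and 1672 CPM with siMESH1-CDS. With siMESH1-7002 it measured 454, 458 and 449 CPM against 302, 302 and 319 in its siNT. All 3 knockdown libraries were above all 3 control libraries in each experiment. The change was 3.10-fold with siMESH1-CDS (log2 change 1.63 ± 0.08, SE, adjusted p = 0.000212) and 1.47-fold with siMESH1-7002 (0.56 ± 0.04, adjusted p = 6.83e-09). With a GC content of 45.0%, CDH2 rose further than the median of its GC class with either siRNA, 0.65 and 0.03, and the GC-corrected changes were 1.30 and 0.60.

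CDH6, the cadherin-6 gene, measured 492, 515 and 493 CPM in siNT and 977, 1146 and 898 with siMESH1-CDS. In the second experiment it measured 1263, 1282 and 1461 CPM in siNT and 1795, 1804 and 1781 with siMESH1-7002. Again the groups did not overlap, with changes of 2.01-fold (log2 change 1.01 ± 0.11, adjusted p = 0.000732) and 1.34-fold (0.43 ± 0.05, adjusted p = 1.9e-06). CDH6 had the lowest GC content of the 9 transcripts, 39.9%, and its rise with siMESH1-CDS equalled the median of its GC class, 1.02. After the GC correction the change was 0.25 with siMESH1-CDS (adjusted p = 0.00671) and 0.40 with siMESH1-7002 (adjusted p = 3.82e-10). The medians over all genes in those corrected fits were 0.17 and 0.07.

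Kidney-specific cadherin fell steeply with siMESH1-CDS, while its siMESH1-7002 libraries overlapped their siNT. CDH16 measured 86.9, 79.1 and 79.0 CPM in siNT and 2.50, 0.572 and 10.5 CPM with siMESH1-CDS, so that 5.55% of the siNT mean was left. With siMESH1-7002 it measured 920, 871 and 876 CPM against 910, 886 and 863.5, and the groups overlapped. The log2 change was -4.17 ± 0.99 with siMESH1-CDS (adjusted p = 0.0102) and 0.00 ± 0.04 with siMESH1-7002 (adjusted p = 0.95).

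The fall of CDH16 exceeded the median of its GC class, -2.57, and remained after the GC correction at -1.62 ± 0.40 (adjusted p = 0.0119). It depended in size on single libraries, being -5.78 without siMESH1-CDS replicate 3 and -3.62 without replicate 2. Within lane 4 and lane 6, where 1 library of each group ran, the log2 ratios were -3.04 and -4.98. With siMESH1-7002 the GC correction gave 0.13 ± 0.03 (adjusted p = 0.00176).

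E-cadherin stayed at trace level in the first experiment and fell with siMESH1-7002. CDH1 had 3, 13 and 5 reads with siMESH1-CDS against 0, 1 and 5 in siNT, too few for the filter on low counts, and a library with 0 reads could hold up to 0.0563 CPM. The ratio of summed reads was 4.01 with a 95% counting interval of 1.56 to 12.1, and the libraries of the groups overlapped. The fits that did test it there gave a called rise in the model of 12 libraries (log2 change 2.02, adjusted p = 0.0323) and no call without the filter (adjusted p = 0.117) or with DESeq2 (adjusted p = 0.134). In the second experiment CDH1 had 87, 74 and 73 reads with siMESH1-7002 and 113, 110 and 135 in siNT, or 3.02, 2.50 and 2.41 CPM against 3.56, 4.42 and 4.79.

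All siMESH1-7002 libraries were thus lower in CDH1 than any siNT library of that experiment. The log2 change was -0.68 ± 0.15 (adjusted p = 0.000939), and -0.60 after the GC correction. In a single model of all 12 libraries, which share a larger spread, the same change of -0.69 was not called (adjusted p = 0.146).

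**Figure D2:**
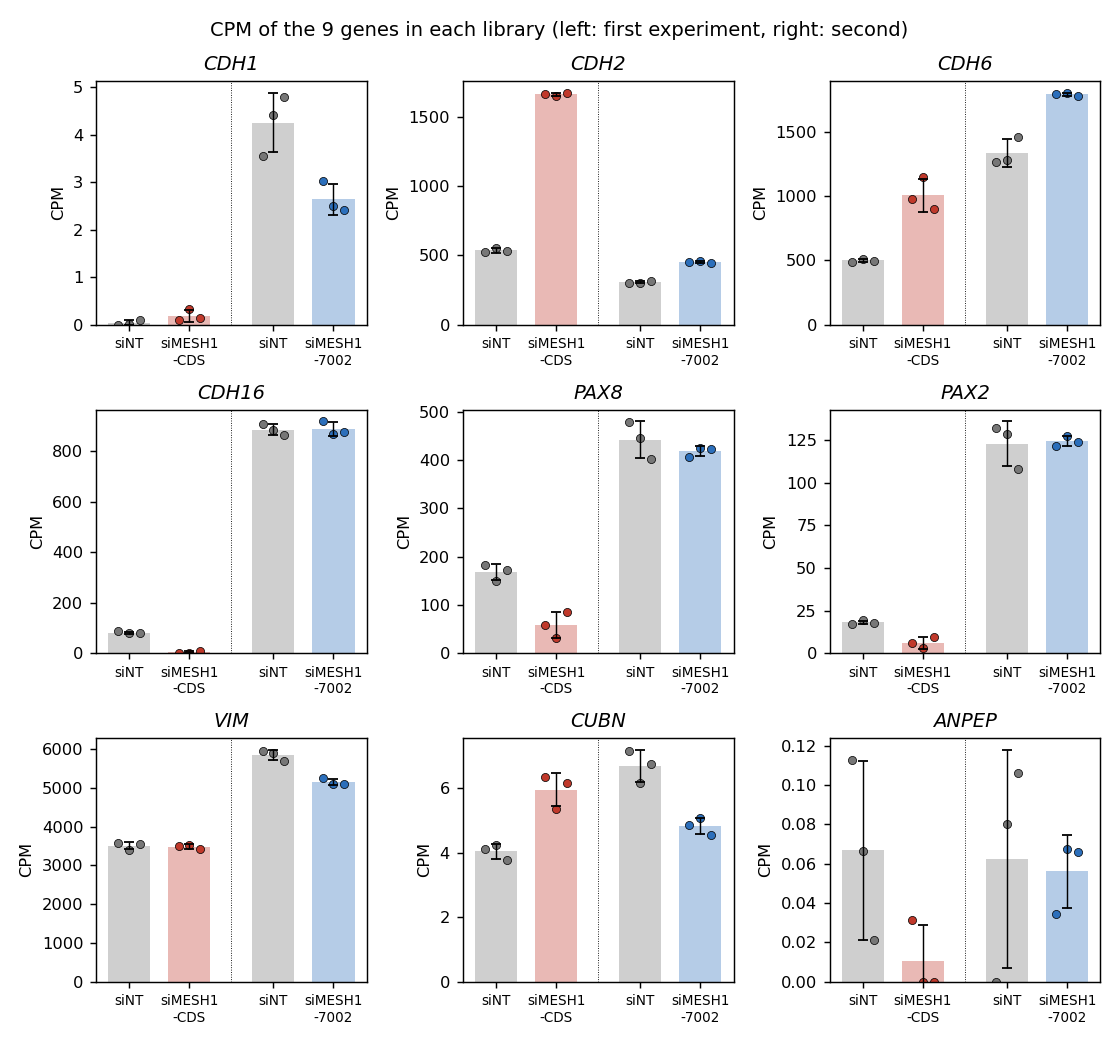
CPM of the 9 genes in each library (points), with bars for the mean of 3 libraries and error bars for the SD; siNT is grey, siMESH1-CDS red and siMESH1-7002 blue, and each panel has its own axis from 0. CDH2 and CDH6 lay above siNT with both siRNAs, whereas CDH16, PAX8 and PAX2 lay below it with siMESH1-CDS and overlapped it with siMESH1-7002.

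The paired-box genes fell with siMESH1-CDS, PAX8 about as far as its GC class, and the sign of both changes turned in the GC-corrected fit. PAX8, a transcription factor of the kidney and thyroid lineages, measured 182.5, 150 and 173 CPM in siNT and 58.9, 31.2 and 85.1 CPM with siMESH1-CDS. PAX2, which acts with PAX8 in the early nephric lineage, measured 17.4, 19.3 and 17.5 CPM in siNT and 5.76, 2.91 and 9.55 CPM with siMESH1-CDS. The groups did not overlap for either gene.

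The log2 changes were -1.53 ± 0.35 for PAX8 (adjusted p = 0.00927) and -1.57 ± 0.43 for PAX2 (adjusted p = 0.0163). PAX8 has a GC content of 57.0% and its class had a median of -1.64, so its change was close to that of other genes of like composition. PAX2, at 63.3% the richest in GC of the 9 transcripts, fell less than its class, whose median was -3.67. The GC-corrected changes were 0.56 ± 0.10 for PAX8 (adjusted p = 0.00324) and 1.99 ± 0.21 for PAX2 (adjusted p = 0.000398). The median over all genes in that fit was 0.17. Relative to the class median, the uncorrected changes were 0.11 for PAX8 and 2.10 for PAX2. PAX2 lost its call without siNT replicate 2 (adjusted p = 0.0508) or siMESH1-CDS replicate 1 (adjusted p = 0.0583).

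With siMESH1-7002, PAX8 measured 406, 425 and 424 CPM against 479, 446 and 403 in siNT. PAX2 measured 122, 127 and 124 CPM against 132, 129 and 108. Knockdown and control libraries overlapped for both. The log2 changes were -0.08 ± 0.05 for PAX8 (adjusted p = 0.209) and 0.02 ± 0.06 for PAX2 (adjusted p = 0.86). The GC correction left PAX8 uncalled at 0.05 and gave 0.16 ± 0.04 for PAX2 (adjusted p = 0.000631). PAX8 was called lower without siNT replicate 3, at -0.15 (adjusted p = 0.000729).

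The siMESH1-CDS libraries took the same order for the 3 genes of this group richest in GC that were tested. Replicate 2 was lowest and replicate 3 highest for CDH16, PAX8 and PAX2 alike. For CDH6, the transcript poorest in GC, the order was the opposite, with replicate 2 highest and replicate 3 lowest. VIM had the order of CDH6 over a narrow range, 3418 to 3535 CPM, CUBN was lowest in replicate 2 as well, and CDH2 ranged from 1651 to 1672 CPM.

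Vimentin did not pass the test with siMESH1-CDS and fell slightly with siMESH1-7002. VIM measured 3567, 3403 and 3563 CPM in siNT and 3505, 3535 and 3418 with siMESH1-CDS, and the groups overlapped. In the second experiment it measured 5956, 5899 and 5692 CPM in siNT and 5247, 5094 and 5102 with siMESH1-7002, with no overlap. The log2 changes were -0.01 ± 0.09 (adjusted p = 0.923) and -0.18 ± 0.04 (adjusted p = 0.000486).

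The VIM values depended on the scaling. Scaling by library size moved the median change of all genes with siMESH1-CDS from -0.05 to -0.31, and VIM then changed by -0.28 (adjusted p = 0.0201), close to that median. The GC class of VIM had a median of -0.76 with siMESH1-CDS, and the GC-corrected change was 1.45 ± 0.30 (adjusted p = 0.00632). With siMESH1-7002 the GC-corrected change was -0.07 and no longer called (adjusted p = 0.0825), and it was not called in the 12-library model either (adjusted p = 0.0706).

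CUBN, which encodes the endocytic receptor cubilin of the proximal tubule, moved in opposite directions with the 2 siRNAs. It measured 4.11, 4.23 and 3.78 CPM in siNT and 6.32, 5.36 and 6.16 with siMESH1-CDS. With siMESH1-7002 it measured 4.85, 5.07 and 4.55 CPM against 7.16, 6.15 and 6.74 in siNT. Knockdown and control libraries were apart in both experiments, and the level was low, at 138 to 227 reads per library.

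The log2 change of CUBN was 0.56 ± 0.17 with siMESH1-CDS (adjusted p = 0.027) and -0.47 ± 0.11 with siMESH1-7002 (adjusted p = 0.00122). GC correction gave 0.42 and -0.42, both called. The rise with siMESH1-CDS was a weak call: it was lost under library size scaling (adjusted p = 0.191), with at least 10 reads asked of every library (adjusted p = 0.0569), with lane as a covariate (adjusted p = 0.12), with a replicate block (adjusted p = 0.0922), and without any one siNT replicate or siMESH1-CDS replicate 1 (adjusted p = 0.0792 to 0.129). ANPEP had 6, 3 and 1 reads in siNT and 1, 0 and 0 with siMESH1-CDS, then 0, 2 and 3 in the second siNT set and 1, 2 and 2 with siMESH1-7002, too few to pass the filter on low counts. Without that filter ANPEP was not called with siMESH1-CDS (adjusted p = 0.128) or siMESH1-7002 (adjusted p = 0.985).

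Counted together, 6 of the 7 genes tested with siMESH1-CDS were called, 3 higher (CDH2, CDH6, CUBN) and 3 lower (CDH16, PAX8, PAX2). Among all 13395 genes tested, 36.9% were called higher and 37.2% lower, so a count of this size is near the background. Their median log2 change was -0.01, against -0.05 over all genes. After the GC correction 7 of 7 were called, 6 higher and 1 lower, against 40.5% higher and 27.0% lower of all genes. The median log2 change of the 7 was then 0.56, against 0.17 over all genes.

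With siMESH1-7002, 5 of 8 tested genes were called, 2 higher (CDH2, CDH6) and 3 lower (CDH1, VIM, CUBN). Of 13568 genes, 26.6% were called higher and 26.7% lower. The median log2 change of the 8 was -0.04, against 0.01 over all genes. The GC correction gave 6 of 8, with 4 higher and 2 lower, against 39.0% and 23.7%. CDH2 and CDH6 were called higher in both experiments before and after that correction, although CDH6 did not rise above its GC class with siMESH1-CDS. The CDH6 change there was -0.01 relative to the class median.

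**Figure D3:**
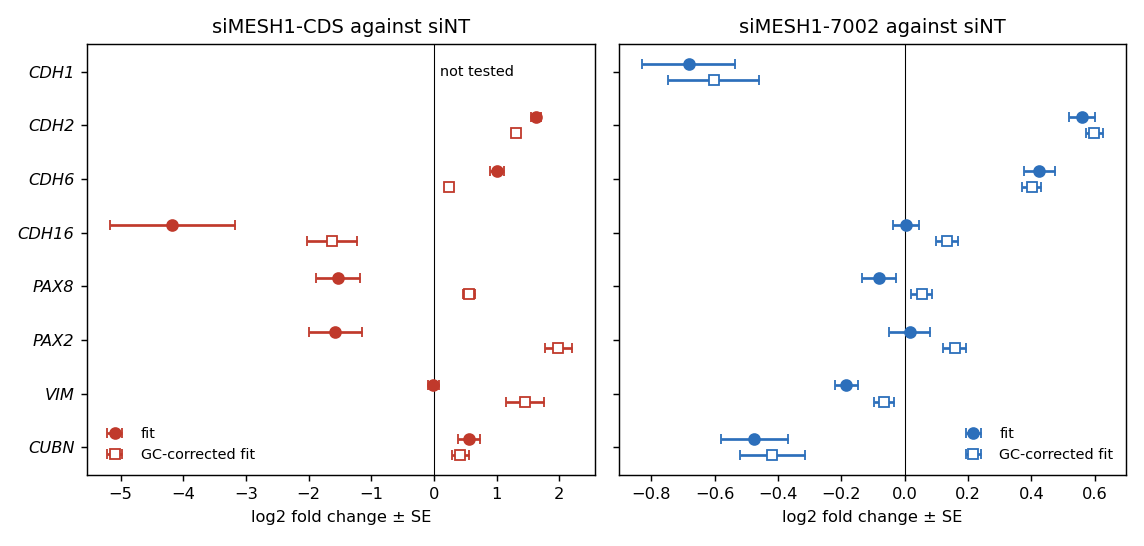
Log2 fold change against siNT ± SE from the edgeR fit (filled circles) and from the GC-corrected fit (open squares), with different axis ranges for the 2 siRNAs; CDH1 was not tested with siMESH1-CDS. CDH2 and CDH6 stayed above 0 in all 4 fits, CDH16 stayed below 0 with siMESH1-CDS, and PAX8 and PAX2 moved from -1.53 and -1.57 to 0.56 and 1.99. The median over all genes in the GC-corrected siMESH1-CDS fit was 0.17.

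**Figure D4:**
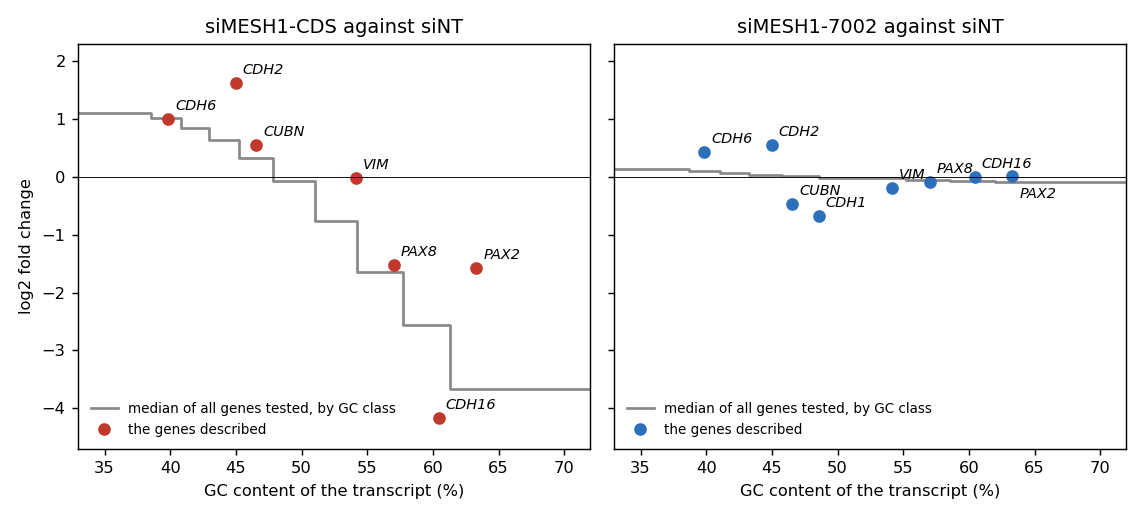
Log2 fold change of the tested genes (points) against transcript GC content in percent, with the median of all genes in 10 GC classes as a stepped line. With siMESH1-CDS, CDH6 and PAX8 lay on the line, CDH2, CUBN, VIM and PAX2 above it, and CDH16 below it.

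The changes with the 2 siRNAs were then compared directly, in a model of all 12 libraries. The change differed for 7 of 8 genes, VIM being the exception, while 69.7% of 14154 genes differed. CDH16 showed the largest gap, its change with siMESH1-7002 being 4.32 ± 0.95 log2 units above that with siMESH1-CDS (adjusted p = 0.00234). DESeq2 gave 4.22 for that difference but no p, so it made no call for CDH16. CDH2 rose more with siMESH1-CDS, by 0.92 ± 0.08 (adjusted p = 1e-05). After the GC correction 8 of 8 genes differed, against 61.2% of all genes, and the sign turned for PAX8, PAX2 and CDH6. Because each siRNA had its own experiment, siRNA and experiment cannot be told apart in this comparison.

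Other genes of the same systems were followed through lists drawn up with earlier results of these data known. Their counts stand against 36.9% higher and 37.2% lower of all genes with siMESH1-CDS and 26.6% and 26.7% with siMESH1-7002, or 40.5%, 27.0%, 39.0% and 23.7% after GC correction. Of 19 other cadherins only CDH4 and CDH24 reached a mean of 1 CPM over the 12 libraries. CDH4 (R-cadherin) changed by -1.93 and CDH24 by -2.60 on the log2 scale with siMESH1-CDS (adjusted p = 0.00378 and 0.0148), both turning positive with GC correction, at 0.76 and 0.93. With siMESH1-7002, 0 of 4 tested cadherins of this list were called by edgeR or by DESeq2, and 1 had an unadjusted p under 0.05. CDH4 changed by -0.12 and CDH24 by 0.24 there, the latter being called after GC correction at 0.39 (adjusted p = 0.000115).

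Catenins and proteins that join cadherins to actin moved in both directions. Of 14 tested, 7 were higher and 5 lower with siMESH1-CDS, and 5 higher and 4 lower with siMESH1-7002, with median log2 changes of 0.02 and 0.02. After GC correction 9 were higher and 2 lower with siMESH1-CDS, with a median of 0.46, and 7 higher and 4 lower with siMESH1-7002. CTNNB1 (beta-catenin) rose by 0.25 and 0.28 (adjusted p = 0.0437 and 4.88e-05), although its GC-corrected change with siMESH1-CDS was -0.32 and not called. NECTIN2 (PVRL2 in the files), an adhesion receptor of the nectin family, changed by -1.93 and -0.50 (adjusted p = 0.0202 and 1.6e-06), the first value turning to 0.65 with GC correction. CTNNA1 (alpha-catenin), at 1349 CPM in siNT of the first experiment, changed by -0.30 (adjusted p = 0.0463) and by 0.02 (adjusted p = 0.648), or 0.09 and called after GC correction, and VCL (vinculin) by 0.30 (adjusted p = 0.0178) and -0.05 (adjusted p = 0.264).

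Kidney transcription factors other than PAX8 and PAX2 were called lower more often than higher with siMESH1-7002, 5 against 1 of 15, and 6 against 3 of 15 with siMESH1-CDS, with median log2 changes of -0.07 and -0.37. After GC correction 5 were lower and 2 higher with siMESH1-7002, but 5 lower and 5 higher with siMESH1-CDS, where the median turned to 0.48. SALL1, a zinc finger factor of nephron progenitors, fell with both siRNAs, from 114 to 52.6 CPM with siMESH1-CDS (log2 change -1.12, adjusted p = 0.000706) and from 164 to 114 with siMESH1-7002 (-0.52, adjusted p = 1.09e-07). Its GC-corrected changes were -0.72 and -0.43, both called. WT1 lay near 1 CPM and changed by -1.16 and -0.77 (adjusted p = 0.0395 and 0.0179), and its call with siMESH1-CDS was lost after GC correction, at -0.06 (adjusted p = 0.877).

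Proximal tubule genes went different ways in the 2 experiments. Of 11 tested with siMESH1-CDS 6 were higher and 1 lower, with a median log2 change of 0.93, whereas of 12 tested with siMESH1-7002 1 was higher and 8 lower, with a median of -0.35. After GC correction the counts were 5 and 1 with siMESH1-CDS and 1 and 7 with siMESH1-7002. HAVCR1, the kidney injury molecule KIM-1, fell from 886 to 578.5 CPM with siMESH1-7002 (log2 change -0.61, adjusted p = 3.75e-09) and changed by 0.18 with siMESH1-CDS (adjusted p = 0.467). DAB2, an adaptor that serves endocytosis by megalin and cubilin, rose from 113 to 483 CPM with siMESH1-CDS (2.10, adjusted p = 0.000214) and fell with siMESH1-7002 (-0.27, adjusted p = 6.54e-05). CUBN had the same pair of directions, and so did other genes of this list. MME (neprilysin) rose with both, by 0.93 and 0.48 (adjusted p = 0.00342 and 0.00103), though by 0.12 and without a call after GC correction with siMESH1-CDS. GGT1 (gamma-glutamyltransferase) changed by -3.29 and -0.13 on the log2 scale (adjusted p = 0.0291 in each), and neither was called after GC correction. LRP2 (megalin), the partner of cubilin, was read 0 times in every library.

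Epithelial junction and polarity genes were called lower more often than higher, 10 against 4 of 15 with siMESH1-CDS and 8 against 2 of 17 with siMESH1-7002, but 5 against 6 and 6 against 7 after GC correction. The median log2 changes before the correction were -1.68 and -0.07. CLDN1 (claudin-1) rose with both siRNAs, from 35.8 to 404 CPM with siMESH1-CDS (log2 change 3.50, adjusted p = 0.000185) and from 30.6 to 44.7 with siMESH1-7002 (0.55, adjusted p = 1.47e-06). Its GC-corrected changes were 2.80 and 0.55. CLDN2 (claudin-2), the most abundant gene of this list, changed by -1.35 and -0.20 on the log2 scale (adjusted p = 0.0355 and 0.000558), and its call with siMESH1-CDS was lost after GC correction, at -0.54 (adjusted p = 0.0871). ESRP2, a splicing factor of epithelial cells, changed by -2.05 and -0.64 (adjusted p = 0.00171 and 6.26e-06), the first value turning to 0.82 with GC correction. PARD3, a polarity protein, changed by 0.05 (adjusted p = 0.783), or 0.47 and called after GC correction, and by -0.57 with siMESH1-7002 (adjusted p = 5.79e-09).

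Among factors of epithelial to mesenchymal transition and mesenchymal genes, 6 rose and 6 fell of 15 tested with siMESH1-CDS. With siMESH1-7002 8 of 15 rose and 0 fell by edgeR and by DESeq2, while 10 were higher and 0 lower at an unadjusted edgeR p under 0.05. After GC correction 11 rose and 0 fell with siMESH1-7002, and 9 rose and 3 fell with siMESH1-CDS. The median log2 changes were 0.70 with siMESH1-CDS and 0.35 with siMESH1-7002. SNAI2 (Slug), a zinc finger repressor, rose from 10.98 to 43.6 CPM (log2 change 1.99, adjusted p = 0.000268) and from 9.85 to 26.1 CPM (1.41, adjusted p = 1.11e-10). SPARC, a matricellular protein, rose from a low level by 1.63 and 1.54 (adjusted p = 0.00222 and 4.11e-08), and ITGB1 (integrin beta-1) by 1.25 and 0.37 (adjusted p = 0.000582 and 1.77e-05). All 3 kept their direction and call after GC correction. TGFBI, the most abundant gene of this list, changed by -1.03 with siMESH1-CDS (adjusted p = 0.021), or 0.17 after GC correction, and rose by 0.34 with siMESH1-7002 (adjusted p = 4.76e-07).

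Markers of other cell types were mostly at or near 0. Summed over 6 endothelial genes the level was at most 0.190 CPM in any library, and over 6 leukocyte genes at most 0.537 CPM. The highest of these, VWF and KDR of endothelium and CD14 and FCER1G of leukocytes, had at most 5, 5, 6 and 19 reads in a library. Of 10 distal nephron and collecting duct markers, 7 had at most 3 reads in every library, and their sum was 0.115 to 0.443 CPM in the first experiment and 6.40 to 9.61 CPM in the second. SCNN1A, an epithelial sodium channel subunit, made up most of that, at 8.39 CPM in siNT and 5.93 CPM with siMESH1-7002 (log2 change -0.50, adjusted p = 0.000236), while AQP3 had at most 20 reads in a library. CDH1, also a distal nephron gene, was likewise higher in the second experiment and lower with siMESH1-7002.

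The podocyte list summed to 183.6 to 197.8 CPM in siNT of the first experiment, 54.5 to 121 with siMESH1-CDS, 626.9 to 687.4 in siNT of the second and 570.1 to 611.2 with siMESH1-7002, nearly all of it from SYNPO and PODXL, which other cells express too, while the slit diaphragm gene NPHS1 had at most 1 read in any library. SYNPO changed by -0.98 and -0.17 (adjusted p = 0.0434 and 0.00533), the first value turning to 1.52 with GC correction, and PODXL changed by -1.42 and 0.30 (adjusted p = 0.000892 and 0.000688), the first value turning to 1.66 (adjusted p = 0.0167). The fibroblast and smooth muscle list ranged from 19.6 to 22.6 CPM in siNT and 3.93 to 4.24 with siMESH1-CDS, and from 11.5 to 14.3 in siNT and 26.5 to 30.3 with siMESH1-7002, almost all from COL1A1, a collagen gene. COL1A1 changed by -2.39 with siMESH1-CDS (adjusted p = 0.000243), or 1.12 and uncalled after GC correction, and by 1.22 with siMESH1-7002 (adjusted p = 5.33e-09), while PDGFRB had at most 26 reads in a library. Whether other cells had a part in these results was not tested.

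The pattern of CDH6, the cadherin of highest mean CPM, was matched most closely by PAFAH1B1, CLIP4 and TTC3 (Pearson r = 0.999, 0.999 and 0.998 over 12 libraries, among 11549 genes). That of VIM was matched most closely by ZNF362, UNK and LRRC59 (r = 0.966, 0.965 and 0.964). These are descriptions of log2 CPM relative to the siNT mean of each experiment, and the libraries share depth and GC composition. With that centring, r rests largely on the shifts from siNT to knockdown in the 2 experiments. The log2 changes were 1.01 and 0.43 for CDH6, 0.87 and 0.36 for PAFAH1B1, 1.09 and 0.46 for CLIP4, and 1.82 and 0.81 for TTC3. The genes closest to CDH6 had a GC content of 40.4 to 41.5%, next to 39.9% for CDH6 itself. PAX2, VIM and CUBN lie on chromosome 10 and CDH1 and CDH16 on chromosome 16, while PAX8, CDH2, CDH6 and ANPEP lie on chromosomes 2, 18, 5 and 15.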

How the data were processed

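RNA-seq libraries were made with a stranded mRNA kit. The deposited files hold raw read counts per gene, which the authors made with HISAT2 and HTSeq on hg19 after FastQC, as the submitters' processing notes list them. Versions, annotation and the strand setting of counting are not given in the sources used here, so reads of PAX8 or VIM and of an antisense gene may not be told apart. The authors' DESeq2 tables hold fold changes and p-values and were not used.

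The counts were analysed in edgeR 4.0.16 under R 4.3.3 (filterByExpr, TMM, quasi-likelihood F test), separately in each experiment over all genes that passed the filter, with Benjamini-Hochberg adjustment and a threshold of 0.05. Lines without a gene name stayed out of library sizes and tests. They held 10.0% to 20.8% of reads in no annotated gene and 9.98% to 27.1% that aligned to several places. Reads of low alignment quality were 6.31% to 7.59% in the first experiment, against 0 in the second. Within the first experiment, reads in no annotated gene were 18.4% to 20.8% with siMESH1-CDS and 14.7% to 15.5% in siNT. Unaligned reads were 2.51% to 3.21% with siMESH1-CDS and 5.31% to 16.2% in siNT, and 3.45% to 3.81% in the second experiment. Whether this split bears on the GC trend was not tested. The difference between the changes came from 1 model of 4 groups. An exact two-sided permutation test of 3 against 3 libraries cannot go below p = 0.1, the value reached by each gene whose groups did not overlap. P-values measure the spread between cultures of 1 line.

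GC content and lengths came from GENCODE release 29 on GRCh38, matched by symbol (21257 of 23710 by name, 1103 by an older symbol, 1350 not matched). No coordinates are given, since the files use another build. GC correction used an offset per gene and library from a lowess smooth (span 0.3, prior count 1) of log2 CPM on GC content. The patterns of CDH6 and VIM were compared on log2 CPM with a pseudocount of 0.5. Alternatives were library size scaling, DESeq2 1.42.0, no filter or at least 10 reads in every library, a replicate block, lane, 1 model of 12 libraries, and leaving out each library. The fits were tested on simulated data drawn with the same spread for all genes and no GC trend, so that test does not cover the trend seen with siMESH1-CDS.

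The 9 genes and all lists were chosen with earlier results of these data known. From each list, the 2 genes of highest mean CPM and the 2 with the largest change called in the same direction with both siRNAs were named. For the cadherin and the other gene of highest mean CPM, the 3 genes of most similar pattern were named. LRP2 and NPHS1 were named after their values were seen. Values of a few listed genes are left out here.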

Additional observations from a re-analysis of the deposited data

Results flagged for a closer look

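The change differed between the 2 siRNAs, in the model of 12 libraries with edgeR, for 7 of the 8 genes tested. As the change with siMESH1-7002 minus that with siMESH1-CDS, on the log2 scale, the difference was 4.32 ± 0.95 for CDH16 (adjusted p = 0.00234). It was 1.60 ± 0.39 for PAX8 (adjusted p = 0.00405) and 1.74 ± 0.43 for PAX2 (adjusted p = 0.00481), and both turned negative after GC correction. For CDH2 it was -0.92 ± 0.08 (adjusted p = 1e-05) and for CUBN -0.88 ± 0.15 (adjusted p = 0.000481). For CDH6 it was -0.43 ± 0.13 (adjusted p = 0.0144), which turned positive after GC correction. For CDH1 it was -2.71 ± 0.82 (adjusted p = 0.0135). That value rests on 0 to 13 reads per library in the first experiment and was -1.998 and not called without siMESH1-CDS replicate 2 (adjusted p = 0.0767), and -4.44 without siNT replicate 3. For CDH16 the difference was 5.87 without siMESH1-CDS replicate 3.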

How the results depend on the processing

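The count of genes called stayed within 1.5 times its reported value under every alternative run, except that siMESH1-7002 called 3 of 8 in the model of 12 libraries, where 2582 of all genes were called against 7235 in the separate fit. Leaving out 1 library gave 4 to 6 called genes with siMESH1-CDS, 5 to 6 with siMESH1-7002 and 6 to 7 for the difference. With a replicate block the counts were 5, 5 and 7. The block changed no call other than that of CUBN with siMESH1-CDS. Libraries of the same number did not deviate together (correlations of -0.05, 0.22 and 0.13 in the first experiment and -0.06, 0.04 and -0.08 in the second), so the numbers were not read as pairs.

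GC correction turned the sign of 6 values. With siMESH1-CDS, PAX8 became 0.56, PAX2 1.99 and VIM 1.45. Before the correction the VIM change was -0.01 and not called, so it had no clear direction to turn. For the difference between the siRNAs, PAX8 became -0.59, PAX2 -1.73 and CDH6 0.22. The correction also moved the split of all called genes for that difference from 5626 higher and 4240 lower to 3882 and 4787. Its size depends on how GC content is treated: relative to the class median, the changes with siMESH1-CDS were 0.11 for PAX8, 2.10 for PAX2, 0.75 for VIM, -0.01 for CDH6 and -1.61 for CDH16. The VIM change with siMESH1-CDS was -0.17 in the model of 12 libraries and called there (adjusted p = 0.0345). The median change of all genes with siMESH1-CDS in that model was -0.27, so VIM fell less than the median gene. CDH1 in the first experiment and ANPEP in both had too few reads for the filter, although the first experiment was the deeper one.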
